A study of Mus musculus with 6 samples.

Results

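Clade B serpins are protease inhibitors that lack a classical secretion signal and act mostly inside cells. The 6 genes described here are Serpinb1a, Serpinb5, Serpinb6a, Serpinb6b, Serpinb8 and Serpinb9. They were found in the count table by matching its Entrez gene IDs to symbols, and all 6 were present. The table held 24594 genes, of which 28 were clade B serpins and 35 were serpins of other clades. The 6 genes had been selected on these same libraries, from their counts with and without doxycycline, so their difference between the groups is a description and is given without a test.

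The libraries came from epithelial organoids, small structures grown in a gel from crypts of the proximal small intestine of adult mice. All 6 libraries carried the genotype TetON-hYAP/H2B-mCherry, in which doxycycline switches on a human YAP gene, in a constitutively active form (S127A), together with a red fluorescent histone. YAP, a transcriptional coactivator, is held in check by the Hippo kinases. The 3 doxycycline libraries were exposed to 1 µg/ml doxycycline for 48 h, starting when the organoids were passaged, and the 3 control libraries carried the same transgene without doxycycline. The sources used here do not give the age of the adult mice or the driver of the doxycycline-responsive activator. Doxycycline was never given to organoids lacking the transgene, and the drug and the transgene therefore cannot be told apart. Adult crypts were taken from 1 animal per sample according to the growth protocol, but nothing says which animal gave which library, so p-values measure the spread between these samples, which may in part be technical.

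A serpin presents a flexible reactive centre loop as bait. When a target protease cuts it, the serpin folds over and traps the protease in an inactive complex, so each inhibitor is spent in the act. In epithelia and in leukocytes, clade B members are known for protecting cells from their own lysosomal or granule proteases and from those released by neutrophils, mast cells and cytotoxic lymphocytes. The mouse genome holds many more clade B genes than the human genome, because several of them, among them Serpinb1a, Serpinb6a and Serpinb9, have local duplicates.

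The genes lie in 2 clusters, and upstream sequences are shown for those whose windows carried a searched motif and for the paralogs Serpinb9 and Serpinb9b, whose levels were alike in controls and far apart with doxycycline. RefSeq promoter windows of GRCm38.p6 were present for 5 of the 6 genes, all but Serpinb1a, with 6 windows in all. Each held 250 bases before and 50 bases from an annotated start on. Both strands were searched for GGAATG, the core recognised by TEAD factors, which are the DNA-binding partners of YAP, and for TGANTCA, the AP-1 core. The 2 motifs do not overlap in the windows shown. Each line gives the 250 bases before the start, read along the strand of the gene, with matches in capitals. The windows are chr1:106860925-106861174 for Serpinb5, chr1:107589756-107590005 for Serpinb8 and chr13:34002795-34003044 for Serpinb6a, the last on the minus strand. Those of Serpinb9 and Serpinb9b are chr13:33004291-33004540 and chr13:33027164-33027413, and all but Serpinb6a are on the plus strand.
Serpinb5: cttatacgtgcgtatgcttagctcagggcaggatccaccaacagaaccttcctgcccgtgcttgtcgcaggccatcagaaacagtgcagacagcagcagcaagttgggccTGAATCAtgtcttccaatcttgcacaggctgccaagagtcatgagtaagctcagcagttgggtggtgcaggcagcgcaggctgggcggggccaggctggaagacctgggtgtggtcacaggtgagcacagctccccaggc
Serpinb8: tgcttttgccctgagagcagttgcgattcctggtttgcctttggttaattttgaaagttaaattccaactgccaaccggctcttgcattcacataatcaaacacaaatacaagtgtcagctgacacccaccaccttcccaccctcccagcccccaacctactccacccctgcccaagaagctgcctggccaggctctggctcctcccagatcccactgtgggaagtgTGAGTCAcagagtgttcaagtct
Serpinb6a: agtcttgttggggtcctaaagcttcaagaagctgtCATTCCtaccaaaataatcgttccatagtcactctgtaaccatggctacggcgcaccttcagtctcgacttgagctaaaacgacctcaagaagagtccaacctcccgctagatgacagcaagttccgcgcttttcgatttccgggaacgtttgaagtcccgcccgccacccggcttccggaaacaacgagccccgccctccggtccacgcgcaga
Serpinb9: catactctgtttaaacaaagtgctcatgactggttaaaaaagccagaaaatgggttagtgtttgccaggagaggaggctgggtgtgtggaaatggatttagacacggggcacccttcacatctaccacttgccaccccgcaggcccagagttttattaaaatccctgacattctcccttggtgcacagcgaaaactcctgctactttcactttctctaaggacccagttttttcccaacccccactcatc
Serpinb9b: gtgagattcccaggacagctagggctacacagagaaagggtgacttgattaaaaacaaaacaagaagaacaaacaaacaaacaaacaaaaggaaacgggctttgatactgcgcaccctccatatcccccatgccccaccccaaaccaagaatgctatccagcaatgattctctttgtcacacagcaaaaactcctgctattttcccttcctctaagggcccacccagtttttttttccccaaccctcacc

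The TEAD core occurred in 1 of the 5 genes, Serpinb6a, where its reverse complement CATTCC begins 215 bases before the start. That gene has a further annotated start whose window held neither motif. The AP-1 core occurred in Serpinb5, beginning 140 bases before the start, and in Serpinb8, where one match begins 23 bases before the start and another lies just after it. Of 32851 promoter windows of this length in RefSeq, 14.7% held the TEAD core and 7.81% the AP-1 core. Among the 32 windows of the 26 clade B genes that had one, 6 held the TEAD core and 8 the AP-1 core. Apart from those of Serpinb6a, Serpinb5 and Serpinb8, the windows with a motif belonged to genes with at most 7 counts over all libraries. The windows of Serpinb6b, Serpinb9e and Serpinb9f held neither motif. The windows of Serpinb2 overlap, and the same AP-1 match is counted in each of them. The upstream bases of Serpinb9 and Serpinb9b were identical at 154 of 250 positions (61.6%), which was more than in any other pair compared here except Serpinb9e and Serpinb9f (93.2%). Neither of the windows of Serpinb9 and Serpinb9b held a searched motif. The upstream bases shown for Serpinb9 lie inside the span of the gene, and those before its first base were not searched. Those of Serpinb9b end just before the first base of its gene, so the windows differ in place relative to the span of the gene. In sequence both hold the stretch aaaactcctgcta near their end, before the annotated start.

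The libraries held 8533452 to 16803062 counts. Values are CPM, the usual depth-scaled counts, with TMM-scaled library sizes, and fold changes come from edgeR's quasi-likelihood fit over all genes that passed its expression filter. Of 12909 genes tested, 45.3% passed an adjusted p of 0.05 (that is, were called), 21.7% higher with doxycycline and 23.6% lower, and in 61.3% the CPM ranges of the 2 groups were separate. The median log2 fold change over all genes was -0.08. It was -0.52 when total counts were the only scaling, where 25.4% of the calls were higher in place of 47.9%. Control replicate 3 stood apart: its log2 CPM correlated with the other controls across genes at 0.916 and 0.919, against 0.991 between those. Test results of named serpins and proteases that turn on it are given with and without it. Counts of marker genes that rose or fell are given with all libraries only. The mouse gene Yap1, which checks the labels only in part because reads of the human transgene may or may not be counted there, was at 208 ± 44.6 CPM in controls and 146 ± 3.29 with doxycycline (SD, n = 3 each; edgeR's quasi-likelihood adjusted p = 0.0707, 1.28e-07 without control replicate 3 and 0.00657 when scaled by total counts). Markers of intestinal epithelium were abundant in every library, with a summed level of 4619 to 5273 CPM over 8 genes in controls and 17880 to 19070 with doxycycline, and the lowest library held 402 CPM of Epcam.

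All 6 serpins were higher with doxycycline, with no overlap between the groups in any of them. Separate ranges, in either direction, were seen in 61.3% of all genes tested. Serpinb6a and Serpinb1a were already abundant in control organoids and had the smallest fold changes of the 5 that were fitted, Serpinb5 and Serpinb9 rose from low levels by similar folds, and Serpinb6b and Serpinb8 were at or near 0 without doxycycline. Of the 6, 5 passed the expression filter and all of these passed the threshold in the higher direction, against the 21.7% of all genes given above. Serpinb6a did not pass with total counts as the only scaling. Nor did it pass when any library other than control replicate 3 was left out. Because the genes were selected on this contrast, nothing is read from these counts. The RNA is from whole organoids, so a change in the number of cells of a type and a change in RNA per cell cannot be told apart.

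**Figure D1:**
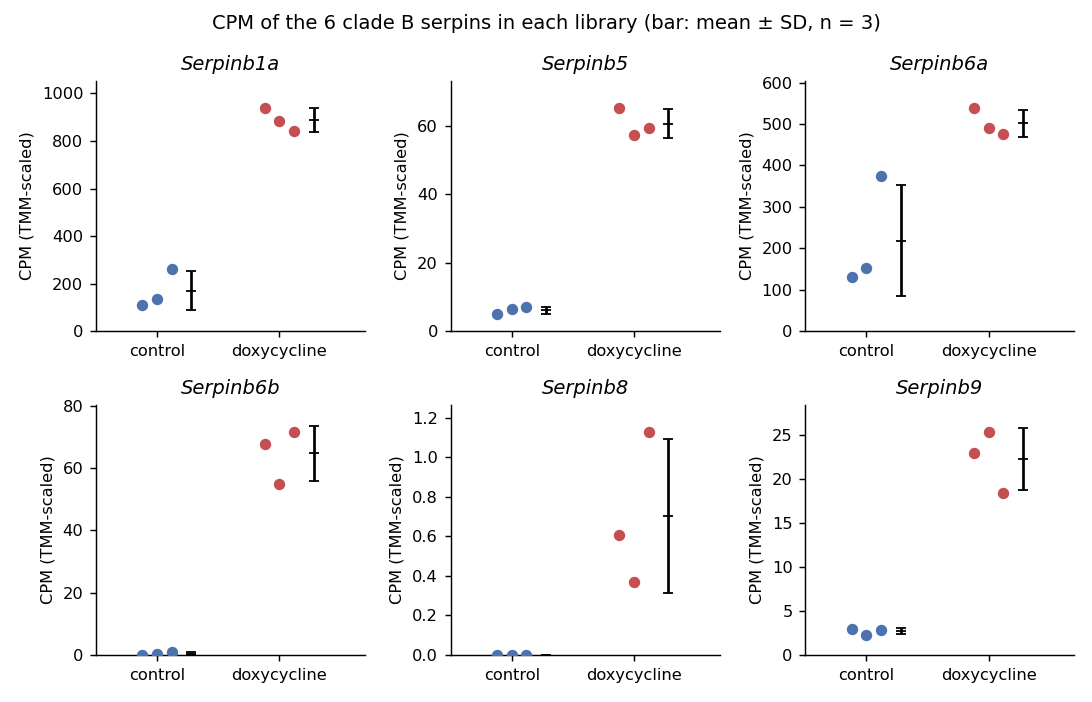
CPM of the 6 serpins in each library, 1 panel per gene with its own linear axis from 0. Points are libraries in the order of their replicate numbers, blue for control and red for doxycycline, and bars are the mean ± SD of 3 libraries. Every doxycycline point lies above every control point, and control replicate 3 is the highest of the controls for Serpinb1a and Serpinb6a.

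Serpinb1a (Entrez 66222, chr13:32842092-32853206) inhibits the neutrophil proteases elastase, cathepsin G and proteinase 3. It stood at 111, 135 and 263 CPM in the control libraries and at 939, 884 and 842 CPM with doxycycline. The doxycycline libraries were close to each other and far above every control, while control replicate 3 was well above the other controls. The mean went from 169.6 ± 81.9 to 888 ± 49.0 CPM (SD, n = 3 each), a log2 fold change of 2.39 with a standard error (SE) of 0.341. Without control replicate 3 it was 2.87.

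Serpinb6a (Entrez 20719, chr13:33917918-34002794) is an inhibitor of cathepsin G and other trypsin-like and chymotrypsin-like proteases, and is widely expressed. It was at 131, 152 and 374 CPM in controls and at 539, 489.6 and 477 CPM with doxycycline. Control replicate 3 lay nearer to the doxycycline libraries than to the other controls. The mean rose from 219 ± 135 to 502 ± 32.9 CPM (SD, n = 3 each), a log2 fold change of 1.20 (SE 0.402). The log2 fold change was 0.76 with total counts as the only scaling, 0.93 to 1.24 when any library other than control replicate 3 was left out, and 1.84 without control replicate 3.

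Exons of Serpinb6a overlap those of Nqo2 and Ripk1 on the opposite strand. The use of strand in counting is not stated, and reads in the overlaps cannot be assigned with certainty. Nqo2, a quinone reductase, was at 49.7, 52.4 and 35.5 CPM in controls and 66.5, 65.7 and 66.4 CPM with doxycycline, and Ripk1, a kinase of cell death signalling, at 68.5, 65.5 and 57.6 against 71.4, 72.8 and 80.3 CPM. Neither passed edgeR's quasi-likelihood test (log2 fold change 0.53, adjusted p = 0.0530 for Nqo2, and 0.23, adjusted p = 0.248 for Ripk1), though Nqo2 passed without control replicate 3 (0.39, adjusted p = 8.54e-04) and, with all libraries, by RLE factors (adjusted p = 0.0451), DESeq2 (0.0292) and limma-voom (0.0459). In both genes control replicate 3 was the lowest control, whereas it was the highest for Serpinb6a.

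Serpinb6b (Entrez 20708, chr13:32956811-32979067) is a mouse paralog of Serpinb6a, with 86.4% identity between their longest open reading frames. It had 0, 4 and 8 counts in the controls and 669, 592 and 1014 counts with doxycycline, which are 0, 0.308 and 0.805 CPM against 67.7, 54.8 and 71.7 CPM. The gene was thus close to undetected without doxycycline and above 54 CPM in every doxycycline library. The mean went from 0.371 ± 0.406 to 64.7 ± 8.82 CPM (SD, n = 3 each), and the fitted log2 fold change was 7.64 (SE 0.679). Resting on 12 control counts, it depended on which control was left out, being 6.90 without control replicate 1 and 8.84 without control replicate 3. Within the pair, the part of the CPM of Serpinb6a and Serpinb6b that came from Serpinb6b was 0.139 ± 0.121% in controls and 11.4 ± 1.52% with doxycycline.

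Serpinb5 (Entrez 20724, chr1:106861175-106883348) encodes maspin, an epithelial serpin that does not inhibit proteases. It was at 4.91, 6.39 and 6.95 CPM in controls and at 65.3, 57.3 and 59.4 CPM with doxycycline. Both groups were tight, with a gap of many times their spread. The mean rose from 6.08 ± 1.05 to 60.7 ± 4.17 CPM (SD, n = 3 each), a log2 fold change of 3.32 (SE 0.198), and it stayed between 3.19 and 3.45 with any 1 library left out.

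Maspin is best known from stratified and glandular epithelia, so a list of 10 markers of stratified squamous epithelium was set beside it. Their summed level was 6.55 to 12.0 CPM in controls and 54.1 to 59.3 CPM with doxycycline. Of these 10 genes 4 could be tested and 3 rose by edgeR's quasi-likelihood test, the keratin genes Krt4 (4.64 to 38.2 CPM, adjusted p = 7.19e-04) and Krt14 (0 in controls, 6.13 CPM with doxycycline, adjusted p = 3.89e-04) and the desmosomal cadherin gene Dsg3 (0.441 to 7.03 CPM, adjusted p = 6.50e-04). The other tested gene, Krt10, was at 3.35 CPM in controls and 2.96 CPM with doxycycline and did not pass. Krt4 alone made up most of the sum with doxycycline. Trp63, which encodes the master regulator of that tissue, had 4 counts in controls and 0 with doxycycline, Krt1 had 0 counts in every library and Krt13 and Krt6a had 4 each. Whether such cells were present, and their part in the level of Serpinb5, was not tested.

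Serpinb9 (Entrez 20723, chr13:32997061-33017955) inhibits granzyme B, the death-inducing protease of cytotoxic lymphocytes. It was at 2.92, 2.31 and 2.82 CPM in controls and at 23.0, 25.4 and 18.4 CPM with doxycycline. The control libraries were nearly level and all doxycycline libraries were several times higher. The mean rose from 2.68 ± 0.329 to 22.3 ± 3.55 CPM (SD, n = 3 each), a log2 fold change of 3.05 (SE 0.234), and it stayed between 2.95 and 3.18 with any 1 library left out.

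Serpinb8 (Entrez 20725, chr1:107589926-107608978) inhibits the proprotein convertase furin. It had 0 counts in each control and 6, 4 and 16 counts with doxycycline, or 0.607, 0.370 and 1.13 CPM. It did not pass the expression filter. Taking 3 counts over the 3 controls as the most that 0 counts allow, it was at least 9.95-fold higher with doxycycline. This bound covers counting error in the controls only, and the doxycycline counts are taken as observed. The bound fell to 5.70 without control replicate 1 and to 6.45 without doxycycline replicate 3.

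Each gene's level was also placed on a per-length scale, as CPM per kilobase of the longest coding transcript. In controls Serpinb6a (132 ± 81.4) and Serpinb1a (88.4 ± 42.7) led (CPM per kilobase, SD, n = 3). Their means did not separate beyond the spread, though Serpinb6a was above Serpinb1a within each control library. Serpinb5 (2.28 ± 0.393), Serpinb9 (0.773 ± 0.0947) and Serpinb6b (0.169 ± 0.185) followed. With doxycycline the order was Serpinb1a (463 ± 25.6), Serpinb6a (303 ± 19.9), Serpinb6b (29.5 ± 4.02), Serpinb5 (22.7 ± 1.56), Serpinb9 (6.42 ± 1.02) and Serpinb8 (0.153 ± 0.0850). Serpinb6b thus went from below Serpinb5 and Serpinb9 in every control to above both in every doxycycline library. With the length of all exons of a gene in place of the transcript, Serpinb1a led in controls (73.6) and Serpinb6a came second (40.5).

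Of the 22 other clade B genes, 3 had at least 10 counts over the 6 libraries, and all 3 belong to the Serpinb9 family. The other 19 had at most 7 counts each, and 13 of them had none. Serpinb9b (chr13:33027414-33040588), a paralog next to Serpinb9, was at 2.11, 3.39 and 2.82 CPM in controls and at 508, 405.5 and 382 CPM with doxycycline. It was level with Serpinb9 in controls and far above it in all doxycycline libraries. The mean went from 2.77 ± 0.642 to 432 ± 66.9 CPM (SD, n = 3 each), a log2 fold change of 7.29 (SE 0.281, edgeR's quasi-likelihood adjusted p = 3.15e-05).

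Serpinb9e was at 0.117, 0.154 and 0 CPM in controls and at 4.75, 3.89 and 5.16 CPM with doxycycline (log2 fold change 5.41, SE 0.535, edgeR's quasi-likelihood adjusted p = 3.98e-04). Serpinb9f had 0 counts in the controls and 0.607, 1.11 and 0.989 CPM with doxycycline, at least 12.2-fold higher over 32 counts and at least 7.02-fold without control replicate 1, and it did not pass the expression filter. Both values are uncertain because the copies are near identical. Of the 50-base windows of the Serpinb9e transcript 28.4% occur in another gene, and of those of Serpinb9f 78.7%. For the 6 serpins and Serpinb9b that share was at most 3.42%, in Serpinb1a, and it was 0.38% for Serpinb9 and 0.499% for Serpinb9b.

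Serpinb9 and Serpinb9b share 86.5% of their longest open reading frames. The part of their joint CPM that came from Serpinb9b was 41.9, 59.5 and 50.0% in the controls and 95.7, 94.1 and 95.4% with doxycycline. On the per-length scale Serpinb9b was at 0.852 ± 0.197 CPM per kilobase in controls, within the spread of Serpinb9, and at 133 ± 20.6 with doxycycline, next after Serpinb1a and Serpinb6a (SD, n = 3 each). Over all exons it was at 129 and Serpinb6a at 92.8, so that order turned with the length used.

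**Figure D2:**
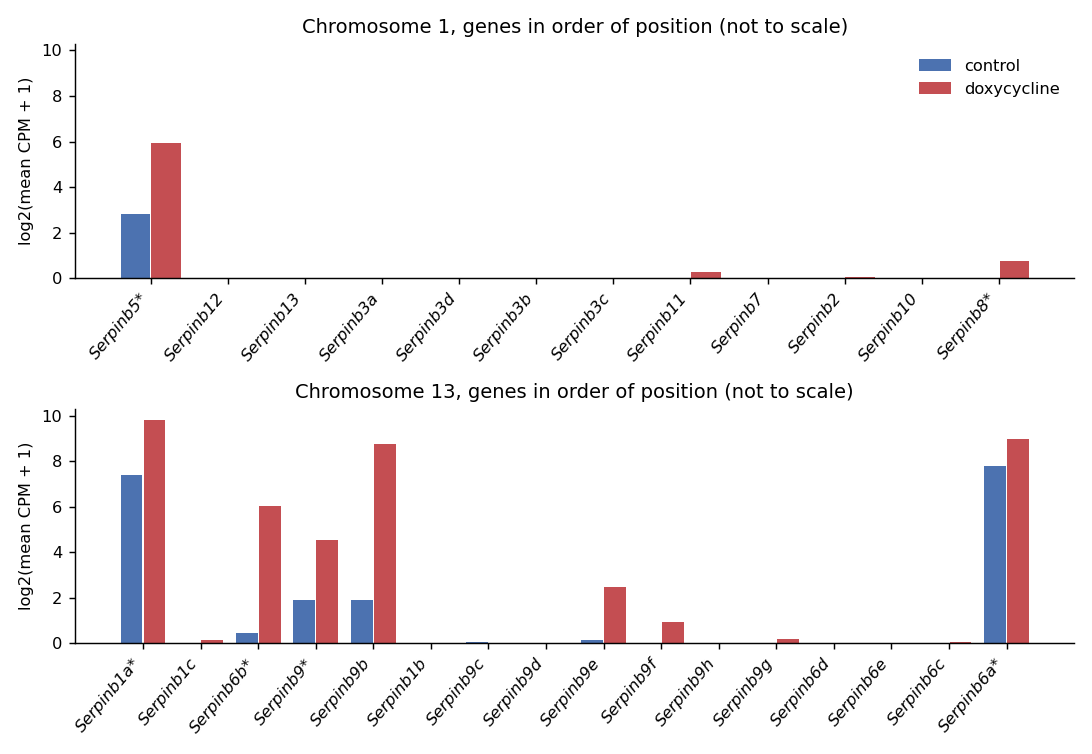
Mean CPM of the 28 clade B serpin genes in order along chromosomes 1 and 13, as log2(mean CPM + 1) on a common axis from 0, blue for control and red for doxycycline. Asterisks mark the 6 serpins described here, and spacing is not to scale. On chromosome 1 only the genes at the ends show visible levels in either group apart from a trace of Serpinb11, and on chromosome 13 the end genes Serpinb1a and Serpinb6a are high in both groups.

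The 12 clade B genes of chromosome 1 span 0.75 Mb, with Serpinb5 first and Serpinb8 last in order of coordinate. These were the only genes of that cluster with at least 10 counts. The Serpinb3 genes, Serpinb7, Serpinb10, Serpinb12 and Serpinb13 between them had 0 counts in every library. The 16 genes of chromosome 13 span 1.16 Mb, from Serpinb1a to Serpinb6a, and 7 of them had at least 10 counts. Serpinb6b, Serpinb9 and Serpinb9b are consecutive genes there, while Serpinb1b, Serpinb9d, Serpinb9h, Serpinb6d and Serpinb6e were at 0 counts in every library.

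The summed CPM of all 28 clade B genes was 252, 299.7 and 650.4 in the controls and 2148, 1922 and 1858 with doxycycline. Control replicate 3 was highest among the controls but below all doxycycline libraries. The part of that sum from Serpinb1a was 43.2 ± 2.41% in controls and 45.0 ± 1.15% with doxycycline (SD, n = 3 each). That from Serpinb6a was 53.4 ± 3.60% and then 25.4 ± 0.295%, and that from Serpinb9b was 0.800 ± 0.350% and then 21.8 ± 1.65%. These are parts of the reads, not corrected for length. They show a gene against itself between the groups.

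**Figure D3:**
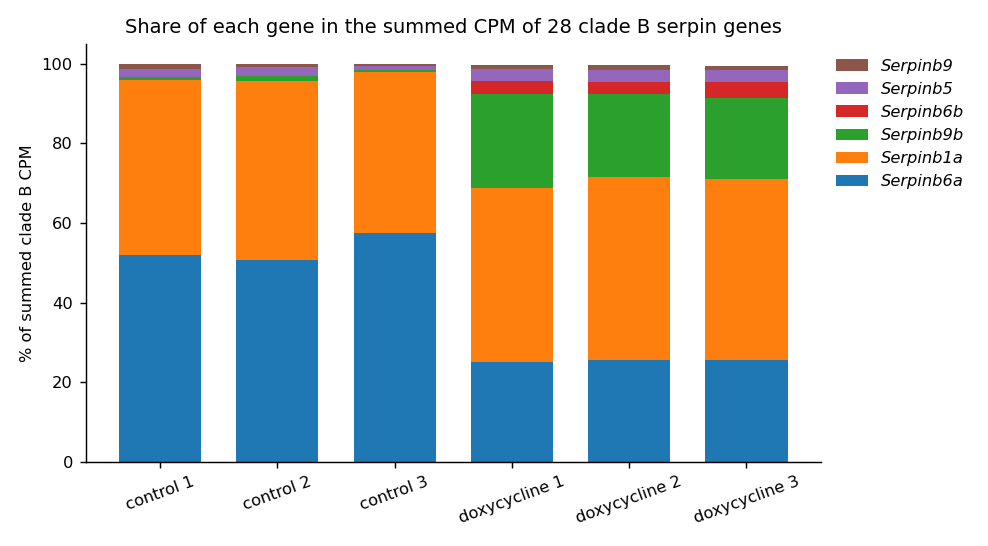
Percentage of the summed CPM of 28 clade B serpin genes that came from each of 6 genes, 1 bar per library. The part from Serpinb6a is 50.7 to 57.5% in controls and 25.1 to 25.7% with doxycycline, that from Serpinb1a is about level, and that from Serpinb9b is visible with doxycycline.

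Among serpins of other clades, 5 of 35 genes could be tested, 1 rose and 2 fell, and 19 had no count in any library. Serpinf2, the plasmin inhibitor, fell by 4.32 on the log2 scale (edgeR's quasi-likelihood adjusted p = 0.00886), and its log2 fold change moved to -3.51 with control replicate 3 left out and to -3.62 with doxycycline replicate 3 left out. Serpina9 fell from 54 counts to 0, at least 15.7-fold lower and at least 9.31-fold without doxycycline replicate 3. Serpini1 had a log2 fold change of -1.88 (adjusted p = 0.0643; -2.77 without doxycycline replicate 3), and passed without control replicate 3 (adjusted p = 0.0262), with total counts as the only scaling (0.0257) and by limma-voom (0.0413). Serpinc1, which encodes antithrombin, had one of 0.53 (adjusted p = 0.254). The median of the 5 was -1.88, also with Serpina9 at its bound, beside -0.08 over all genes.

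**Figure D4:**
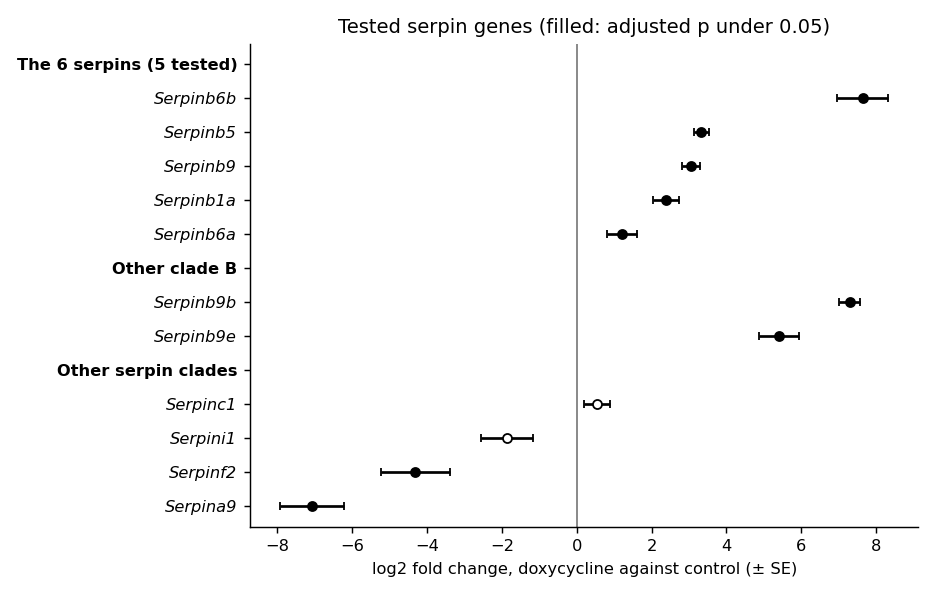
Log2 fold change (± SE) of 11 of the serpin genes tested, doxycycline against control. Filled points passed an adjusted p of 0.05 by edgeR's quasi-likelihood test. All 7 clade B genes lie to the right of 0, and the 4 genes of other clades shown lie on both sides. The fitted value of Serpina9 rests on 0 counts in one group and is no bound.

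Proteases that clade B serpins are known to inhibit were examined as a list of 19 genes. The list was drawn for the clade as a whole, and not every protease on it is tied to 1 of the 6 serpins. The leukocyte targets were absent: Elane, Ctsg, Cma1, Gzma and Gzmb, which encode neutrophil elastase, cathepsin G, mast cell chymase and granzymes A and B, had 0 counts in every library, as did the kallikrein genes Klk5 and Klk8, and Prtn3 had 2 counts. Of the 9 genes tested 4 rose, 2 fell and 3 did not pass, with a median log2 fold change of 0.91 beside -0.08 over all genes. The plasminogen activator genes Plat (5.99 to 34.4 CPM, log2 fold change 2.53, adjusted p = 1.64e-04) and Plau (0.747 to 3.45 CPM, 2.19, adjusted p = 0.00196) rose, by edgeR's quasi-likelihood test. Casp8, the initiator caspase of death receptors, rose by 0.96 (adjusted p = 0.00290).

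Furin, the target of Serpinb8, was at 96.0, 106 and 67.4 CPM in controls and at 166, 173 and 169 CPM with doxycycline. It was higher in all doxycycline libraries and rose by 0.91 on the log2 scale (edgeR's quasi-likelihood adjusted p = 0.00959), but did not pass with total counts as the only scaling (0.47, adjusted p = 0.0829). The lysosomal protease gene Ctss fell by 1.60 (adjusted p = 0.0229), a call lost without doxycycline replicate 1 (adjusted p = 0.0801) or doxycycline replicate 2 (adjusted p = 0.0888). The inflammatory caspase gene Casp4 also fell, by 0.79 (adjusted p = 0.0417), but did not pass when any library other than control replicate 3 was left out (adjusted p = 0.0866 to 0.145), with no low-count filter (0.0715), by DESeq2 (0.0546) or with the replicate number as a block (0.124). Casp1, Ctsb and Ctsl had log2 fold changes of 0.62, 0.22 and 1.02 and did not pass (adjusted p = 0.152, 0.505 and 0.0794), though Ctsl passed by DESeq2 (0.0369) and limma-voom (0.0318). Without control replicate 3 all 9 passed, 7 higher and 2 lower, with Ctsl at 1.64.

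Since the known leukocyte targets were not detected, markers of immune cells were read in the same libraries. Their summed level over 18 genes was 21.2 to 44.1 CPM in controls and 29.9 to 32.3 CPM with doxycycline. The groups overlapped, and most of the sum came from Csf1r, at 18.6 to 40.7 CPM in controls and 24.7 to 25.7 CPM with doxycycline. Ptprc, the gene of the common leukocyte antigen, had 2 counts over the 6 libraries, and 6 of the 18 markers, among them the perforin gene Prf1 and the neutrophil gene S100a8, had none. The neutrophil marker Ly6g rose from 2 counts to 66 (edgeR's quasi-likelihood adjusted p = 0.00446), with 34, 14 and 18 counts in the doxycycline libraries. Its log2 fold change was 5.07, and 4.48 without doxycycline replicate 1. Without control replicate 1 the controls had 0 counts, and it was at least 14.5-fold higher. Mesenchymal markers summed to 0.154 to 1.01 CPM in controls and 0.565 to 0.925 CPM with doxycycline over 9 genes, and endothelial markers to 0.877 to 1.41 and 1.52 to 2.76 CPM over 6 genes, where Tek rose (adjusted p = 0.0154), though not without control replicate 1 or 2 or doxycycline replicate 2 or 3 (adjusted p = 0.0568 to 0.0680). The part of any of these cell types in the serpin values was not tested.

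Epithelial lineage markers moved between the same groups. All 5 crypt base stem cell markers fell, from a summed 3742 to 5049 CPM in controls to 24.0 to 24.7 CPM, as did all 5 Paneth cell markers (2294 to 4679, then 34.1 to 39.1 CPM) and all 6 goblet cell markers (51.4 to 102.4, then 1.52 to 2.59 CPM), each by edgeR's quasi-likelihood test. Of 8 enterocyte markers 6 rose and none fell, from 2444 to 4076 CPM in controls to 17440 to 18300 CPM with doxycycline. Among the 8 intestinal epithelium markers 5 rose and 1 fell, the transcription factor gene Cdx1. Control replicate 3, highest of the controls for Serpinb1a and Serpinb6a, was also highest for the Paneth, goblet and enterocyte sums. It was likewise highest for the immune, mesenchymal and endothelial sums, and lowest for the crypt base stem cell sum. The part of the epithelial lineages in the serpin values was not tested.

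A second list held 17 membrane-anchored serine proteases and proprotein convertases, the enzymes of the epithelial surface and secretory route. Of 11 tested, 4 rose, 3 fell and 4 did not pass, with a median of -0.12 beside -0.08 over all genes. The convertase genes Pcsk6 (40.5 to 168 CPM, log2 fold change 2.05, edgeR's quasi-likelihood adjusted p = 2.27e-04), Pcsk7 (0.75, adjusted p = 0.00899) and Pcsk5 (1.18, adjusted p = 0.0175) rose. Mbtps1, the site-1 protease gene, fell by 0.82 (adjusted p = 0.0130). With total counts as the only scaling 1 rose and 5 fell, and Pcsk7 (adjusted p = 0.150) and Pcsk5 (adjusted p = 0.0703) did not pass. Without doxycycline replicate 2 or 3 only 3 genes passed, Mbtps1 (adjusted p = 0.0696 and 0.0576) and Pcsk5 (0.0687 and 0.0648) not among them, and Pcsk5 did not pass without control replicate 1 (0.0514) or 2 (0.0549) either.

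Of 18 other protease inhibitors, 9 were tested, 3 rose and 4 fell, and the median was 0.01 beside -0.08 over all genes. Spint1, the Kunitz inhibitor of matriptase and hepsin, rose from 208 to 549.5 CPM (log2 fold change 1.40, edgeR's quasi-likelihood adjusted p = 5.69e-04). Cst3, the secreted cystatin C gene, rose by 1.13 (adjusted p = 0.00326). Timp3, an inhibitor of metalloproteinases, fell from 19.0 to 4.38 CPM (-2.12, adjusted p = 5.33e-04). Spink4, a goblet cell product, fell by 3.92 (adjusted p = 0.00254), and Cst6 fell by 2.56 (adjusted p = 0.00307).

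**Figure D5:**
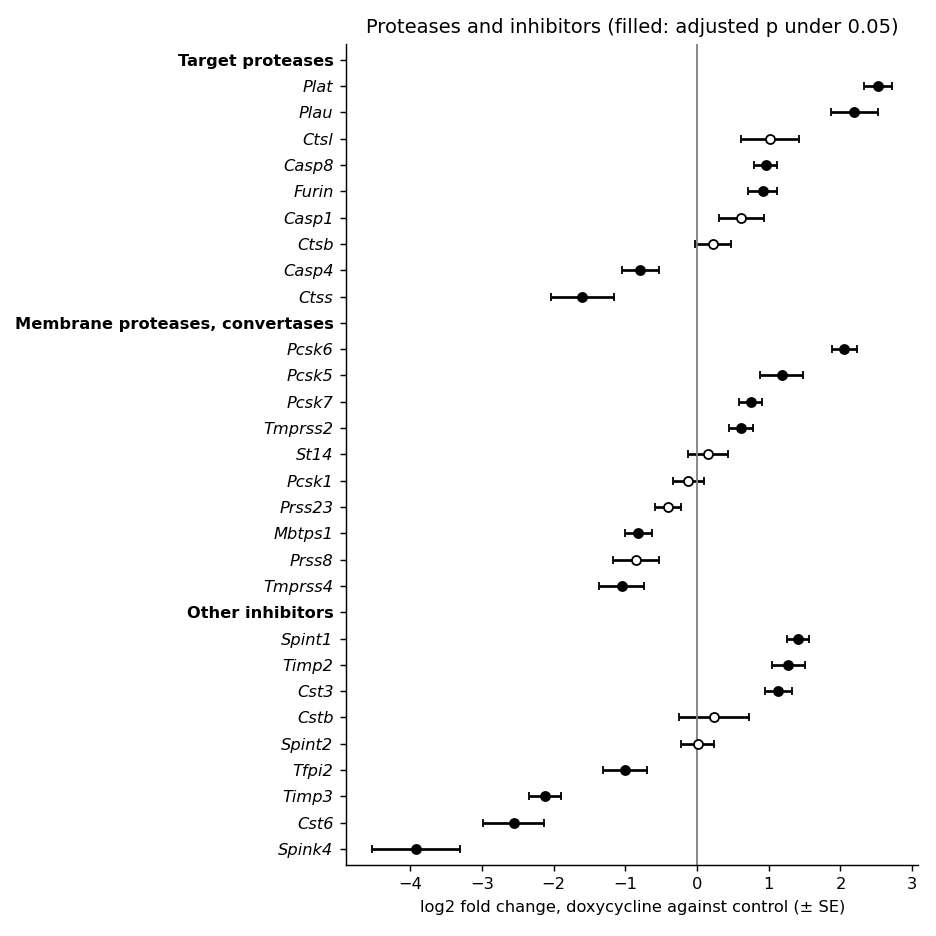
Log2 fold change (± SE) of tested genes of 3 lists, doxycycline against control. Filled points passed an adjusted p of 0.05 by edgeR's quasi-likelihood test. Each list has filled points on both sides of 0, with 4 target proteases, 4 membrane proteases and convertases and 3 other inhibitors higher.

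To show how each serpin varied over the libraries, its log2 CPM profile, centred on its mean, was set against that of the 12593 tested genes whose mean reached 1 CPM, by the root mean square difference over the 6 libraries. Among the nearest were Agpat2 (0.0878) and Plaur (0.117) for Serpinb1a, and Actn4 (0.0569), Akr1b8 (0.0686) and Abhd12 (0.0756) for Serpinb6a. For Serpinb5 they were Car2 (0.0640), Vnn1 (0.117) and Myo1c (0.121), and for Serpinb9 Mmp23 (0.113), Plk2 (0.159) and Edn3 (0.161). Serpinb6b had no neighbour as close, its nearest being Hyal5 (0.342), Crct1 (0.452) and Nt5e (0.510). With 0, 4 and 8 counts in the controls, its profile there is subject to counting error and to the prior count added before the log. Among the serpins themselves Serpinb5 and Serpinb9 were nearest, at 0.304, and Serpinb6a and Serpinb6b were farthest apart, at 2.99. All these profiles share the 6 libraries and the contrast between the groups.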

How the data were processed

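RNA-seq gene counts of 6 libraries, 3 control and 3 doxycycline, were used, grouped by the titles in the labels. The authors deposited whole-number read counts per Entrez gene ID in 1 table. Per the labels' protocols, total RNA was column-purified and TruSeq RNA libraries (Illumina) were run on a NextSeq instrument. The genome build named in the submitters' processing notes is mm10. The aligner, counter, annotation and strand setting are not given in the sources used here. Totals were 8533452 to 16803062 counts. Symbols, positions and promoter windows came from RefSeq tables of GRCm38.p6, which matched 24570 IDs. The other 24, with 2.88 to 4.43% of the counts, stayed in. Transcript lengths, overlaps and copies came from GENCODE M21 of the same assembly, with Biopython 1.88 for alignments.

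Counts were tested with edgeR 4.0.16 in R 4.3.3: expression filter by group with a minimum count of 10, TMM scaling, robust quasi-likelihood F-test, and Benjamini-Hochberg adjustment over all genes tested with a threshold of 0.05. "Rose" and "fell" mean past that threshold. Log2 CPM for profiles used a prior count of 2. Standard errors are the log2 fold change divided by the square root of F. Folds against a group at 0 counts used a floor of 3 counts over that group. Such bounds cover counting error in the group at 0 counts alone, and the counts of the other group are taken as observed. PCR copies were not marked by molecular identifiers. The script was tested on simulated data.

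The 6 serpins and the lists were chosen with earlier results of these data known. Named were the 6 serpins, other clade B genes with at least 10 counts, up to 5 tested genes with the smallest adjusted p of the serpins of other clades and of each of the 3 protease and inhibitor lists, and 3 nearest profiles per tested serpin. Genes of the marker lists, the overlapping genes, Yap1, Casp1, Casp4, Ctsb, Ctsl, and genes listed at or near 0 counts were named after their values were seen. Some genes that this rule names are not reported here, though they stayed in the tests, counts and medians. Alternatives were RLE factors, total counts, no filter, DESeq2 1.42.0, limma-voom (limma 3.58.1), the replicate number as a block, and each library left out.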

Additional observations from a re-analysis of the deposited data

How the results depend on the processing

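Without control replicate 3, 9286 genes were called in place of 5850. Without doxycycline replicate 2 there were 3862 and without doxycycline replicate 3 there were 3836, the range over the libraries left out being 3836 to 9286. The count of membrane serine proteases and convertases, 7 with all libraries, ranged from 3 to 10, that of target proteases, 6 with all libraries, from 4 to 9, and that of other inhibitors, 7, from 6 to 8. Of the 6 serpins 5 passed with all libraries, and 4 or 5 with a library left out. Over 420 log2 fold changes of the named genes other than the 6 serpins under the alternatives, 380 kept their direction and their side of the threshold, 24 kept their direction but no longer passed, 14 newly passed and 2 reversed, Ctsb and Ripk1 with total counts (-0.22 each), neither of which passed either way. With the replicate block, 4509 genes were called. The numbers are not shown to pair the libraries: the deviations of same-numbered libraries from their group means correlated at -0.30, 0.12 and -0.19, and no library correlated best with its own number. Values near 0 counts, as for Serpinb8 and Serpinb6b in controls, are limited by depth.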
